A study of Drosophila melanogaster with 48 samples.

Results

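The larval serum proteins and fat body proteins are described here over the larva-to-adult transition of *Drosophila melanogaster*. The group held 6 genes of the 17558 in the expression table, taken by symbol: *Lsp1alpha*, *Lsp1beta*, *Lsp1gamma*, *Lsp2*, *Fbp1* and *Fbp2*. All 6 passed the filter on low values that 12282 genes passed. Whole-body poly(A) RNA was sequenced from *Ptth* mutants (the labels' ptth120BC2) and wild type (the labels' wOB). *Ptth* encodes prothoracicotropic hormone, the brain peptide that drives ecdysone production, and the study describes its mutant as a null allele with a small deletion in the last exon, backcrossed to the wild-type background. Each genotype was sampled as early larvae of the third instar (L3E, at 96 h after egg laying in *Ptth* mutants and 72 h in wild type), late larvae of the third instar (L3L, at 120 h in *Ptth* mutants and 96 h in wild type), white prepupae (WP), pupae at days 1, 2, 3 and 4 (P1 to P4), and adults 1 to 3 h after emerging (A0). There were 3 replicates per genotype and stage, each a pool of about 15 animals, and 48 libraries in all. The labels do not give the sex of the pools.

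Larval serum proteins are made by the fat body, the fly counterpart of liver and adipose tissue, and secreted into the hemolymph of feeding larvae in the third instar. Before pupariation they are taken back into the fat body and stored, and they later supply amino acids for building the adult. Lsp1 is a hexamer of alpha, beta and gamma subunits from separate genes, Lsp2 forms a hexamer of its own, and both belong to the arthropod hemocyanin superfamily. Fbp1 is a fat body protein that serves in the uptake of Lsp1 and whose gene is a known target of ecdysone. Fbp2 resembles alcohol dehydrogenase in sequence.

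The genes lie apart from each other on build BDGP6. *Lsp1alpha* (FBgn0002562, 2 exons) is on chromosome X from 12490291 to 12492982, *Lsp1beta* (FBgn0002563, 2 exons) on 2L from 898500 to 901316, and *Lsp1gamma* (FBgn0002564, 2 exons) on 3L from 66430 to 68995. *Lsp2* (FBgn0002565, 1 exon) is on 3L from 12129393 to 12131869, *Fbp1* (FBgn0000639, 1 or 2 exons by transcript) on 3L from 14094589 to 14098053 on the minus strand, and *Fbp2* (FBgn0000640, 2 exons) on 2L from 9426784 to 9427917. *Lsp1beta* is 322 kb from *Ptth* itself (2L, 575711 to 576896) on the same arm. Whether sequence of the donor line remains there after backcrossing was not tested. *Lsp2* overlaps the antisense gene *CR11538*, which never exceeded 0.0896 FPKM. *Fbp2* overlaps the end of *CG42847* on the same strand, which reached 44.5 FPKM, so reads in the shared stretch could not be assigned to one of them.

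Libraries held 16712549 to 29784621 reads on genes. Values are FPKM, reads per kilobase of gene, scaled by the authors to the size and composition of the library. A gene was called when limma on log2(FPKM + 1) gave an adjusted p (Benjamini-Hochberg over 12282 genes) under 0.05 and a change above 2-fold. Nothing in the sources says more of how the replicate pools were separated, so the p-values measure the spread between pools. *Ptth* transcripts were low in both genotypes, at 0.121 to 4.97 FPKM in *Ptth* mutants and 0 to 3.42 FPKM in wild type, and a small deletion need not lower them, so they do not check the genotype. Messenger RNA of the whole body cannot tell fewer fat body cells from less RNA per cell.

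The 6 genes together took a large part of the transcriptome in larvae other than wild-type L3E, mostly as Lsp1 genes. In white prepupae they did so mostly as *Fbp1*. In *Ptth* mutants they took 6.28% to 6.81% of all reads on genes at L3E, 5.18% to 6.98% at L3L and 6.10% to 6.70% at WP. In wild type they took only 0.371% to 1.07% at L3E, then 7.32% to 7.90% at L3L and 5.32% to 5.86% at WP. From P1 on the share was lower in both genotypes, and at A0 it was 0.296% to 0.418% in *Ptth* mutants and 0.557% to 0.635% in wild type. The genotypes did not overlap at 7 of the 8 stages, all but P4. The share was lower in *Ptth* mutants at 5 of these 7 and higher at L3E and WP. With 3 libraries against 3 the exact two-sided permutation test cannot go below p = 0.1, which is 0.128 after adjustment over the 32 tests of shares and ratios.

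**Figure D1:**
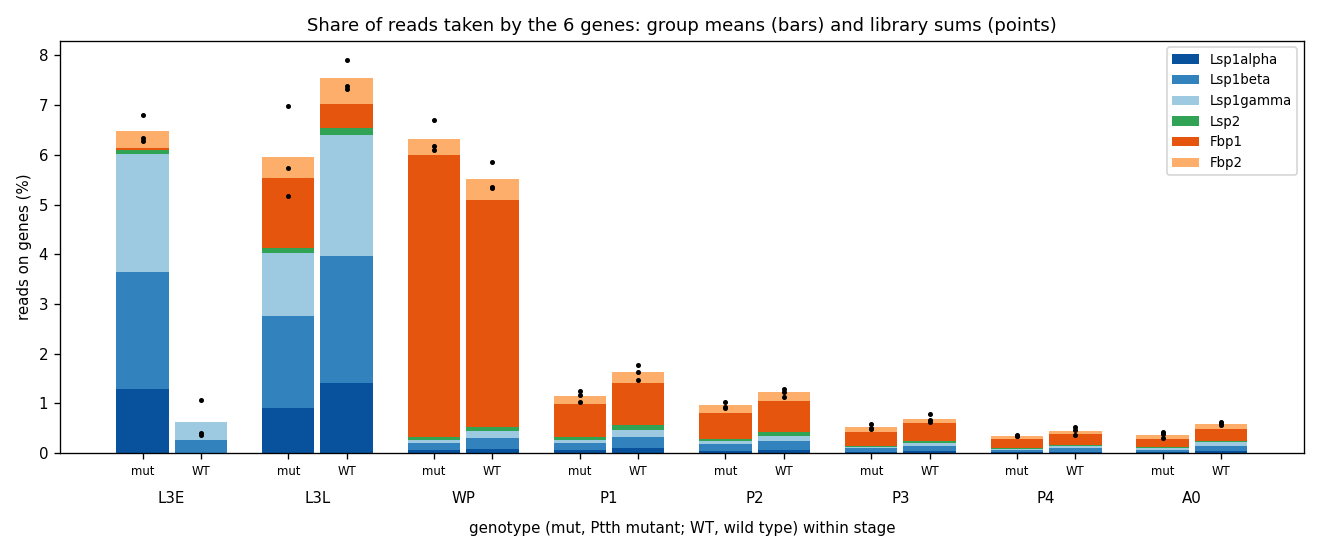
Share of reads on genes (%, y axis) taken by each of the 6 genes at each stage, stacked as means of 3 libraries, with *Ptth* mutants left of wild type and the sum in each library as a point. The Lsp1 genes make up most of the larval bars. *Fbp1* makes up most of the WP bars, where it averaged 5.67% of reads in *Ptth* mutants and 4.58% in wild type. At L3L *Fbp1* averaged 1.40% in *Ptth* mutants and 0.502% in wild type.

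*Lsp1alpha*, the X-linked subunit gene, was at 7031, 7199.7 and 7618 FPKM in *Ptth* mutants at L3E, against 15.7, 7.73 and 70.0 FPKM in wild type. At L3L it was at 2779.8, 3279.6 and 4569 FPKM in mutants, against 6686, 7238 and 5808 FPKM in wild type. The mutant level was thus highest in the earlier larvae and the wild-type level in the later ones, with no overlap at either stage. At WP it had dropped to 167, 135 and 206 FPKM in mutants, against 326, 376 and 174 FPKM in wild type, and these groups overlapped. In mutants the neighbouring levels from P2 (174 ± 21.3 FPKM, SD, n = 3), WP, P1, P3 and A0 to P4 (89.7 ± 9.74 FPKM) all overlapped in that order. In wild type the order after L3L ran WP, P1, P2, A0, P3, P4 and L3E, and A0 (202 ± 15.6 FPKM) stood clear of P3 (149 ± 25.8 FPKM), as P4 did of L3E.

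*Lsp1beta*, the subunit gene with the highest mean FPKM after larval life in both genotypes, was at 13748, 12232 and 11833 FPKM in mutants at L3E, against 794, 767 and 2139.9 FPKM in wild type. It was at 5861, 6759 and 8165 FPKM in mutants at L3L, against 11285, 11538 and 11321 FPKM in wild type. Unlike *Lsp1alpha* and *Lsp2*, it was already well expressed in wild-type L3E larvae, at 10.8% of its wild-type L3L mean, where *Lsp1alpha* was at 0.473%. *Lsp1gamma* shared this trait, at 15.0% of its own wild-type L3L mean. Without replicate 3 of wild-type L3E these were 6.86% for *Lsp1beta*, 9.56% for *Lsp1gamma* and 0.178% for *Lsp1alpha*. At WP the values were 421, 369.9 and 488 FPKM in mutants, against 684, 800.1 and 476 FPKM in wild type. By A0 they were 231, 222 and 114 FPKM in mutants, against 419, 392 and 391 FPKM in wild type, with no overlap.

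*Lsp1gamma* was at 14784, 13421 and 13772 FPKM in mutants at L3E, against 1120.2, 1177 and 3130.1 FPKM in wild type. At L3L it was at 3894, 5204 and 6615 FPKM in mutants, against 11784, 12245 and 12035 FPKM in wild type. From there on every mutant library lay below every wild-type library of its stage. At P1 the values were 190.1, 168 and 142 FPKM in mutants, against 408, 385 and 339 FPKM in wild type. Newly emerged adults had 113, 111 and 72.1 FPKM in mutants, against 291, 265 and 247 FPKM in wild type.

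*Lsp2*, whose protein is the other main storage hexamer, was at 705, 364 and 375 FPKM in mutants at L3E, against 0.0983, 0.0761 and 0.384 FPKM in wild type. Those wild-type values rest on 3, 3 and 13 reads. The ratio of the mean levels, mutant over wild type, was 2589, and counting error alone in the wild-type reads gives it a 95% interval of 1658 to 4300.4 (exact Poisson). Replicate 3 held 13 of the 19 reads, and without it the ratio was 5526, outside that interval, which covers no spread between pools. Its decline afterwards was slower than that of the Lsp1 genes. At WP the mean was still 37.1% of the highest stage mean in mutants and 39.7% in wild type, where *Lsp1alpha* kept 2.33% in mutants and 4.44% in wild type. At A0 *Lsp2* was at 79.9, 89.1 and 53.2 FPKM in mutants, against 77.7, 75.7 and 79.9 FPKM in wild type, and the groups overlapped.

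*Fbp1* had the latest peak of the 6 genes. It was at 97.2, 113 and 254 FPKM in mutants at L3E, against 0.0468, 0.0544 and 0.127 FPKM in wild type, which are 2, 3 and 6 reads. At L3L it was at 3822, 3557 and 5052 FPKM in mutants, against 1728, 2124 and 1486 FPKM in wild type, so that here the mutants were higher without overlap. Both genotypes had their highest level at WP, with 11994, 12441 and 14002 FPKM in mutants, against 10664, 11861 and 10548 FPKM in wild type. One day later it stood at 1372, 1316 and 1160.5 FPKM in mutants, against 1808, 1579 and 1454 FPKM in wild type. At A0 it was at 522 ± 64.4 FPKM in mutants and 793 ± 28.5 FPKM in wild type (SD, n = 3 each).

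*Fbp2* was at 4829, 4469 and 4792 FPKM in mutants at L3E, against 0.680, 0.760 and 1.84 FPKM in wild type (9, 13 and 27 reads). At L3L it was at 3557, 3892 and 4939 FPKM in mutants, against 5955, 6324 and 5115 FPKM in wild type. Both genotypes then stepped down, to 2159, 2592 and 2587 FPKM in mutants at WP, against 3696, 3383 and 2614 FPKM in wild type. Relative to its peak it was better kept than the Lsp1 genes and *Fbp1* at A0, where its mean was 15.6% of the highest stage mean in mutants and 16.1% in wild type, while *Lsp1gamma* kept 0.704% in mutants and 2.22% in wild type. *Lsp2* kept 15.4% in mutants and 12.7% in wild type at A0, and more than *Fbp2* at P1, with 34.9% for *Lsp2* and 22.1% for *Fbp2* in mutants, and 44.6% for *Lsp2* and 23.5% for *Fbp2* in wild type.

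**Figure D2:**
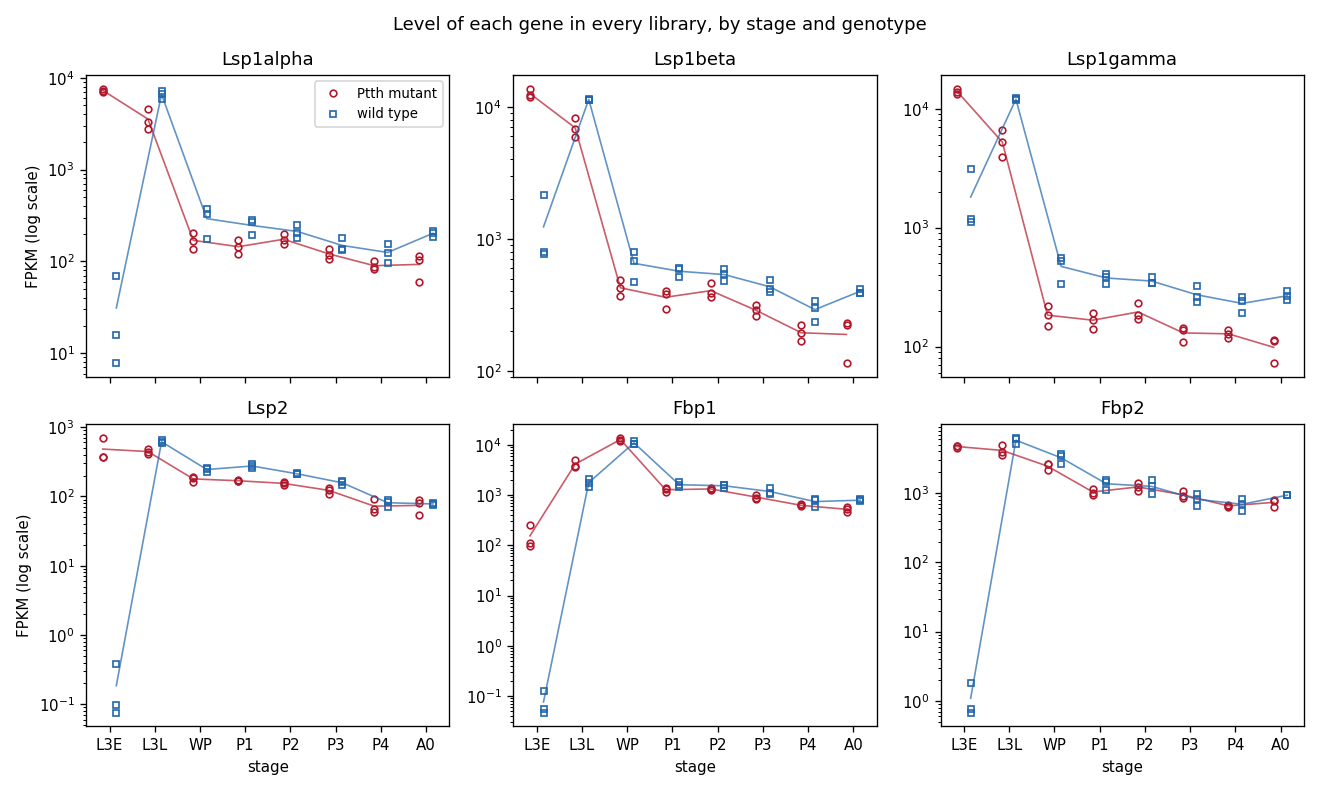
FPKM of each gene on a log axis (y) at the 8 stages (x), with 1 point per library, *Ptth* mutants as circles left of wild type as squares, and lines through the means. Wild-type L3E points lie far below the mutant ones in every panel, and from L3L on the *Lsp1gamma* genotypes do not overlap.

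Whether the genes differed between genotypes was asked stage by stage. At L3E, all 6 were called and all were higher in *Ptth* mutants. Of all genes tested, 17.2% were called there, 10.4% as higher. The log2 change was 11.17 (SE 0.21) for *Fbp2*, 8.61 (SE 0.29) for *Lsp2*, 8.39 (SE 0.76) for *Lsp1alpha*, 7.04 (SE 0.37) for *Fbp1*, 3.52 (SE 0.44) for *Lsp1beta* and 3.12 (SE 0.44) for *Lsp1gamma*. Their median was 7.71, beside 0.02 over all genes tested. Among the wild-type L3E pools, replicate 3 had the highest level of all 6 genes, and the 6 calls were also made without it. The L3E pools differed in age by a day between genotypes, so genotype and age cannot be told apart at that stage.

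Other genes that mark progress through the third instar differed with them. Glue genes of the salivary gland (6 on the list), which are switched on in the second part of the third instar, had 5 members called higher in mutants at L3E and none lower. Their summed level was 87.9 to 135 FPKM in mutants and 1.98 to 2.93 FPKM in wild type. *Sgs3* had 19.3, 31.4 and 21.1 FPKM in mutants at L3E, and was listed at 0 in all 3 wild-type libraries. Of 18 genes of the ecdysone response, 1 was called higher and 6 lower in mutants at L3E (median log2 change −0.37). The higher one was *br*, an early ecdysone-induced transcription factor gene, at log2 1.38 (adjusted p = 0.0144). *ImpE2*, induced by ecdysone in imaginal discs, fell by 4.07 on the log2 scale (adjusted p = 0.00545). The part of these differences in the result on the 6 genes was not tested.

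Fat body genes outside the group did not move as one. Of the 20 tested genes of a list of 24 fat body genes of lipid, sugar and hormone metabolism, 2 were called higher and 2 lower in L3E mutants (median 0.03 on the log2 scale). That is near the share of all genes tested, of which 10.4% were called higher and 6.78% lower there. *Gbp1*, a growth-blocking peptide gene, rose by log2 1.49 (adjusted p = 0.0173), and *tobi*, a glucosidase gene under insulin and glucagon-like control, by log2 1.21 (adjusted p = 0.00117). *NLaz*, a secreted lipocalin gene, fell by 3.54 (adjusted p = 0.000229), and *ACC*, the gene of acetyl-CoA carboxylase, fell by 1.58 (adjusted p = 0.00581), both on the log2 scale. Of 22 autophagy and lysosome genes, 1 was called at L3E, *Atg8b*, at log2 1.88 (adjusted p = 0.00548), and the median was 0.17. Of 8 transcription factor genes of the fat body, the 1 call over the 8 stages was *sug*, at P4 (log2 1.15, adjusted p = 0.0411), and their median at L3E was 0.04.

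Larvae of both genotypes were also compared at 96 h after egg laying, mutants at L3E against wild type at L3L. The paper set these stages by time before pupariation, which its mutants reached later, so larvae of equal age were of unlike stage. At equal age only *Fbp1* of the 6 genes was called, where 3.81% of all genes were. It was at 97.2 to 254 FPKM in mutants and 1486 to 2124 FPKM in wild type, a log2 change of −3.64 (SE 0.39, adjusted p = 0.00354). The means of *Lsp1alpha* were 7283 FPKM in mutants and 6577 FPKM in wild type, a log2 change of 0.15 (95% interval −0.26 to 0.56). Those of *Lsp1beta* were 12604 FPKM in mutants and 11382 FPKM in wild type, a log2 change of 0.14 (−0.37 to 0.66). Those of *Lsp1gamma* were 13993 FPKM in mutants and 12022 FPKM in wild type, a log2 change of 0.22 (−0.31 to 0.74). *Lsp2* had a log2 change of −0.42 (95% interval −1.10 to 0.25) and *Fbp2* one of −0.30 (−0.66 to 0.06). These intervals do not show that the levels were equal, and with quantile normalization the changes of *Lsp1alpha* and *Lsp1beta* had the other sign (log2 −0.08 and −0.12). All mutant libraries lay above all wild-type libraries for *Lsp1beta* and *Lsp1gamma* and below them for *Fbp1* and *Fbp2*. *Lsp1alpha* and *Lsp2* overlapped. Of all genes tested, 24.1% lay wholly above and 17.6% wholly below.

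Genes of other lists were also called at equal age. All 6 glue genes were called lower in the 96 h mutants than in 96 h wild-type larvae, with a median log2 change of −5.88. Of the ecdysone response genes, 0 were higher and 5 of 18 lower, among them *ImpE3* (log2 −1.67, adjusted p = 0.00378), *ImpE2* (log2 −1.52, adjusted p = 0.000575), *br* (log2 −1.30, adjusted p = 0.0137) and *EcR*, the gene of the ecdysone receptor (log2 −1.01, adjusted p = 0.0129). Of the 20 tested fat body genes outside the group, 1 was called, *ACC*, at log2 1.08 (adjusted p = 0.0211). The part of these differences in the *Fbp1* result was not tested.

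**Figure D3:**
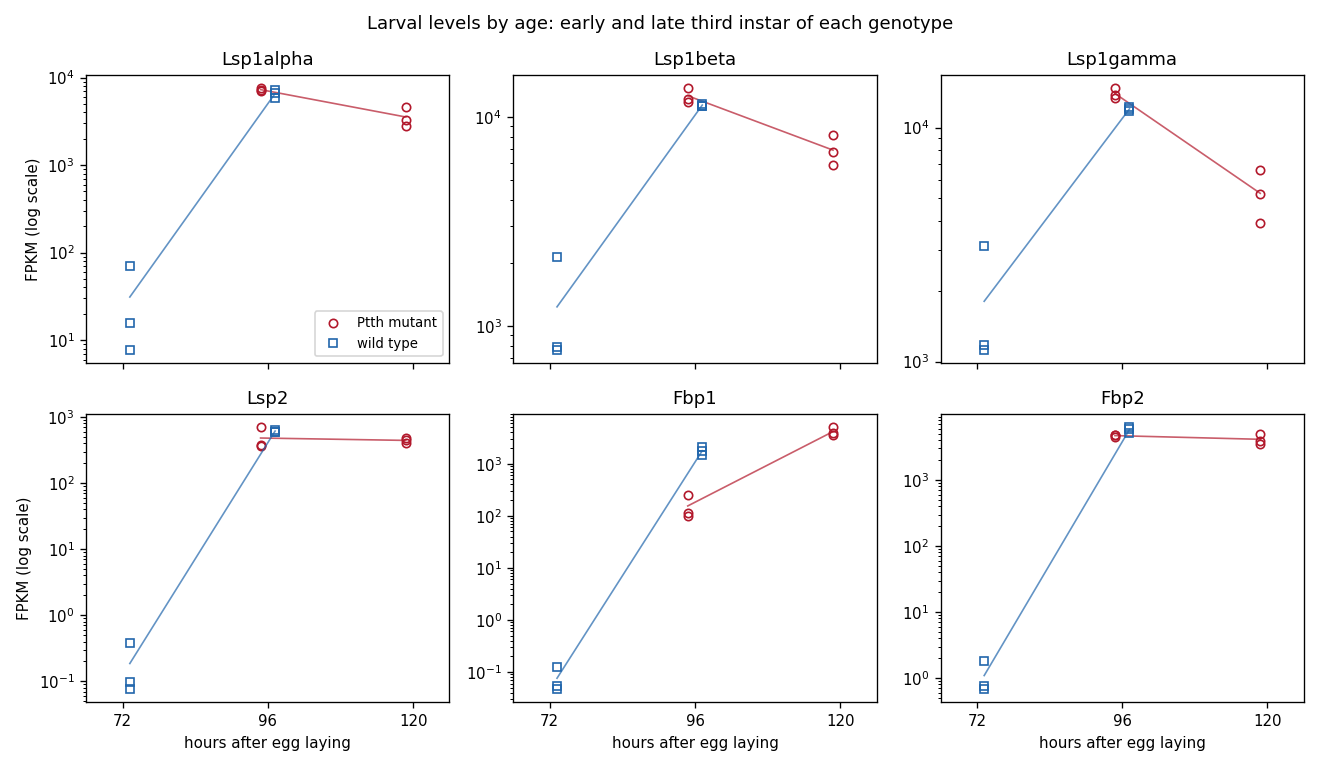
FPKM on a log axis (y) against hours after egg laying (x) for early and late larvae of the third instar, 1 point per library, *Ptth* mutants as circles drawn just left and wild type as squares drawn just right of their true age, and lines through the means. At 96 h the genotypes overlap for *Lsp1alpha*, and the mutant points lie just above the wild-type points for *Lsp1beta* and *Lsp1gamma*. *Fbp1* is at 97.2 to 254 FPKM in mutants and 1486 to 2124 FPKM in wild type.

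At L3L, *Lsp1gamma* was called lower (log2 −1.23, SE 0.22, adjusted p = 0.0079) and *Fbp1* higher (log2 1.22, SE 0.19, adjusted p = 0.00551) in mutants. These are 2 of the 6 genes, where 10.8% of all genes were called. The L3L pools also differed in age, at 120 h in mutants and 96 h in wild type, so genotype and age cannot be told apart here either. *Lsp1alpha* (log2 −0.92, adjusted p = 0.0191), *Lsp1beta* (log2 −0.73, adjusted p = 0.0178) and *Lsp2* (log2 −0.47, adjusted p = 0.00413) had adjusted p-values under 0.05 at less than 2-fold. *Fbp2* had a log2 change of −0.50 (adjusted p = 0.057). Without wild-type replicate 3 or mutant replicate 3 of L3L, *Lsp1alpha* was called as well. Among the mutant L3L pools, replicate 3 had the highest level of all 6 genes. With quantile normalization *Lsp1gamma* was no longer called, and the change of *Lsp2* was log2 0.03 (adjusted p = 0.395).

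*Apoltp* and *apolpp*, 2 fat body genes outside the group, were lower beside the Lsp1 genes at L3L, and glue genes were higher. Of the 20 tested fat body genes of the list, 1 was called lower and 0 higher, with a median log2 change of −0.32. Of all genes tested, 2.64% were called lower and 8.17% higher there, with a median of 0.02. The called gene was *Apoltp*, which encodes a lipid transfer particle protein, at 2.51, 4.202 and 4.24 FPKM in mutants, against 8.97, 9.94 and 8.31 FPKM in wild type (log2 −1.14, adjusted p = 0.00556). *apolpp*, the gene of the main lipoprotein of the hemolymph, was at 196, 272 and 308 FPKM in mutants, against 454, 512 and 508 FPKM in wild type (log2 −0.95, adjusted p = 0.00922), under the 2-fold threshold. These 2 genes are the list of fat body markers. Their summed level, most of it *apolpp*, was 198 to 313 FPKM in mutants and 463 to 522 FPKM in wild type, without overlap. At WP, where *Lsp1gamma* was also called lower, neither was called and their median log2 change was 0.24. The 6 glue genes summed to 10668 to 13422 FPKM in mutants and 6370 to 6908 FPKM in wild type at L3L, and *Sgs4* (log2 2.70, adjusted p = 0.00076) and *Sgs5* (log2 1.22, adjusted p = 0.00151) were called higher. The part of these differences in the L3L result was not tested.

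After pupariation the calls were few and were all of *Lsp1gamma*. It was lower in mutants at WP by log2 −1.34 (SE 0.24, adjusted p = 0.0347), at P1 by −1.18 (SE 0.13, adjusted p = 0.0033) and at P3 by −1.06 (SE 0.15, adjusted p = 0.0175). All genes were called at a rate of 1.56% at WP, 2.38% at P1 and 3.12% at P3. The WP call was lost when any WP library but wild-type replicate 3 was left out, and also without the filter on low values (adjusted p = 0.0607), while the P3 call was lost without wild-type replicate 2 or 3 or mutant replicate 1 or 2 and under quantile normalization. At P1 it held without each library in turn but not under quantile normalization, where 0 of the 6 genes were called. At the same stage 6 of the 18 ecdysone response genes were called higher in mutants and 0 lower, led by *Eip78C* (log2 2.21, adjusted p = 0.00051) and *Hr4* (log2 1.62, adjusted p = 0.00114), both genes of nuclear receptors.

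At P2 and P4 none of the 6 genes was called by limma, where 1.17% and 1.03% of all genes were. The unadjusted p was under 0.05 for 3 genes at P2 and 2 at P4, and limma-voom called 0 at both. *Lsp1gamma* had 232, 184 and 169.9 FPKM in mutants at P2, against 385, 342 and 339 FPKM in wild type, a log2 change of −0.87 (adjusted p = 0.0254) under the 2-fold threshold. Without mutant replicate 1 of P2, or with quantile normalization, it was called. At P4 its log2 change was −0.84 (adjusted p = 0.041).

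In newly emerged adults none of the 6 was called either, beside 0.448% of all genes. Here 5 had an unadjusted p under 0.05 and limma-voom called 1, *Lsp1gamma*. Its log2 change was −1.46 (SE 0.19, adjusted p = 0.0623), and those of *Lsp1alpha* and *Lsp1beta* were −1.17 (adjusted p = 0.136) and −1.15 (adjusted p = 0.167). Mutant replicate 3 of A0 had the lowest level of all 6 genes, and without it *Lsp1gamma* was called. In 1 fit over all 48 libraries all 3 Lsp1 genes were called at A0. The male-specific RNA *roX1* was at 0.158 to 1.55 FPKM in the A0 pools, highest in that same mutant replicate 3, and at 23.8 to 67.9 FPKM in the libraries of the other stages. *Yp1*, a yolk protein gene expressed in females, was at 60.9 to 135 FPKM at A0 and 0 to 23.6 FPKM at the other stages. The A0 pools of both genotypes thus held little of the male RNA that pools of the other stages held. Sex and stage cannot be told apart where A0 is set beside other stages, above and below. The labels give no sex for the pools, and the part of the *roX1* difference in the A0 values was not tested.

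Over the stages from L3L on, the number of the 6 genes whose mutant libraries all lay below all wild-type libraries was 5 at L3L, 3 at WP, 5 at P1, 3 at P2, 4 at P3, 2 at P4 and 5 at A0. The share of all genes tested with that order was 25.4% at L3L, 20.9% at WP, 23.7% at P1, 15.2% at P2, 25.5% at P3, 14.9% at P4 and 12.3% at A0. The median log2 change of the 6 genes was −0.61 at L3L, −0.52 at WP, −0.68 at P1, −0.34 at P2, −0.36 at P3, −0.34 at P4 and −0.88 at A0. The median of all genes tested stayed within 0.03 of 0 at L3L to P3, at −0.03 at P4 and at 0 at A0.

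**Figure D4:**
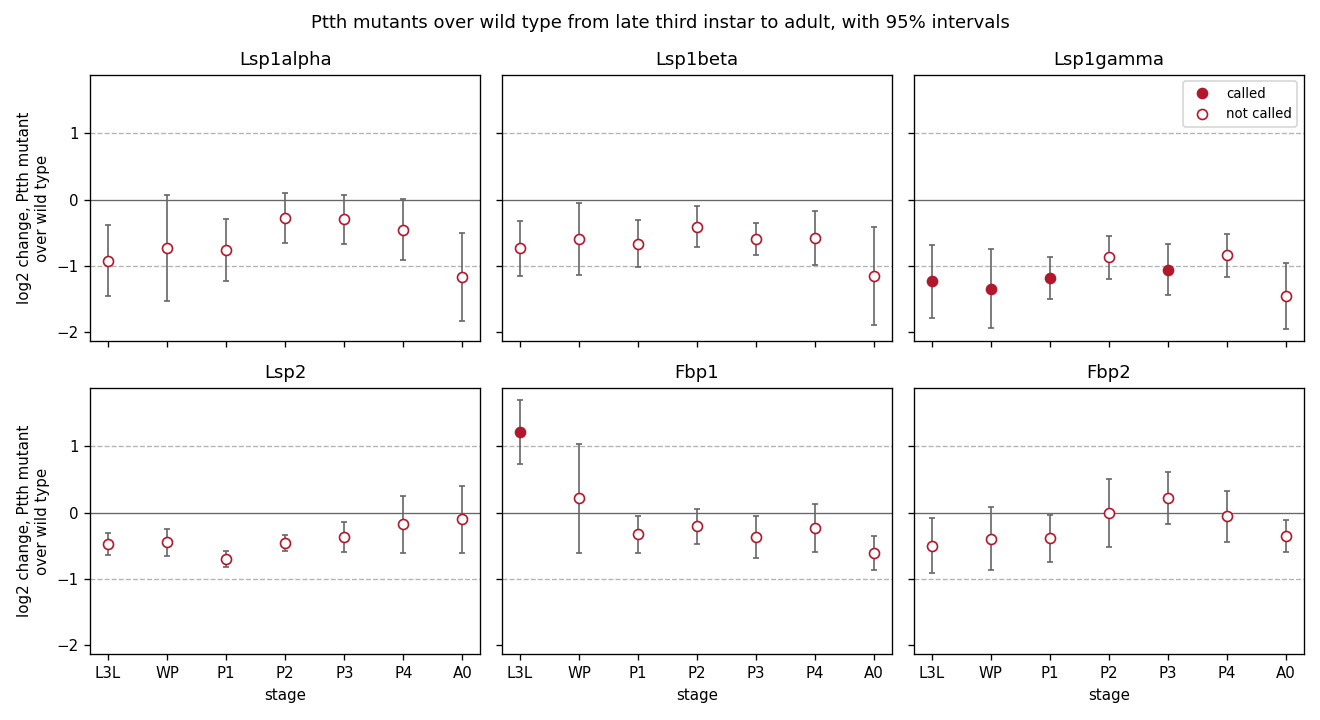
Log2 change of each gene in *Ptth* mutants over wild type (y axis) at the 7 stages from L3L to A0 (x axis), with 95% intervals from limma, filled where called and dashed lines at 2-fold. L3E is left out because its changes run up to 11.17. *Lsp1gamma* lies between −0.84 and −1.46 throughout, and *Fbp1* is called higher at L3L only.

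The Lsp1 genes were next compared with each other within each library, where scaling between libraries cancels. Stage for stage, *Lsp1gamma* was low relative to both other subunit genes in the mutants. At equal age, with mutants at L3E and wild type at L3L, it was not. The mean ratio of *Lsp1gamma* to *Lsp1beta* was then 1.11 in mutants and 1.06 in wild type. Its mean ratio to *Lsp1alpha* was 1.92 in mutants and 1.84 in wild type. The part of staging in these ratios was not tested. By stage, the ratio of *Lsp1gamma* to *Lsp1beta* in FPKM was 1.08, 1.10 and 1.16 in mutants at L3E, against 1.41, 1.53 and 1.46 in wild type. At L3L the ratio was 0.664, 0.77 and 0.81 in mutants, against 1.04, 1.06 and 1.06 in wild type. It was 0.439, 0.4 and 0.447 in mutants at WP, against 0.773, 0.69 and 0.705 in wild type. All mutant libraries were below all wild-type libraries at 7 of the 8 stages. At A0 they overlapped, with 0.488, 0.499 and 0.632 in mutants and 0.694, 0.676 and 0.63 in wild type. Ratios of gene pairs outside the Lsp1 genes were not computed, so the counts of stages here and below have no background share. The ratios use the same values as the calls of *Lsp1gamma* above and are no separate evidence.

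The ratio of *Lsp1gamma* to *Lsp1alpha* was lower in every mutant library than in every wild-type library at all 8 stages. At L3L it was 1.40, 1.59 and 1.45 in mutants, against 1.76, 1.69 and 2.07 in wild type, and at P3 it was 1.03, 1.03 and 1.18 in mutants, against 1.79, 1.90 and 1.81 in wild type. At L3E it was 1.81 to 2.10 in mutants and 44.7 to 152 in wild type, where *Lsp1alpha* was barely expressed. The ratio of *Lsp1alpha* to *Lsp1beta* was free of overlap at only 3 stages, L3E, P2 and P3, and higher in mutants at those. The exact permutation test gave p = 0.1 at best for each ratio and stage, the smallest it allows, and 0.128 after adjustment.

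**Figure D5:**
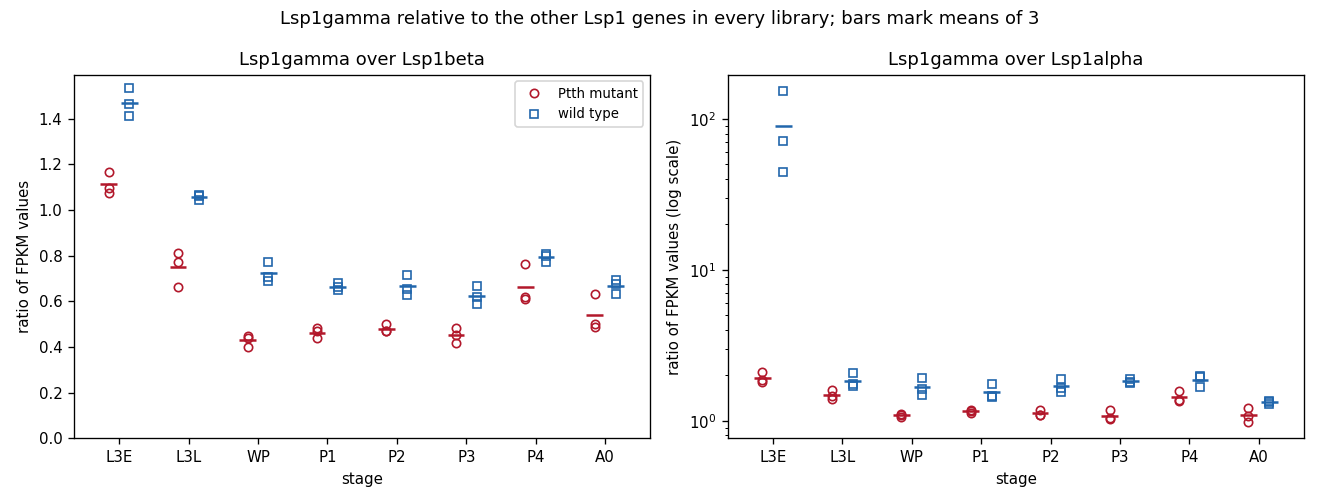
Ratio of *Lsp1gamma* to *Lsp1beta* (left, linear axis from 0) and to *Lsp1alpha* (right, log axis) in FPKM, per library and stage, with *Ptth* mutants as circles left of wild type as squares and short bars at the means of 3. The mutant points lie below the wild-type points at every stage except A0 in the left panel, where one mutant pool at 0.632 reaches the lowest wild-type pool at 0.63.

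How the genes moved from stage to stage was tested in each genotype in 1 fit over its 24 libraries. In wild type, all 6 genes rose at L3L over L3E, where 20.0% of all genes were called and 9.43% as higher, with log2 changes of 2.90 (*Lsp1gamma*) to 11.47 (*Fbp2*). At WP over L3L the Lsp1 genes fell by 4.56 (*Lsp1alpha*), 4.15 (*Lsp1beta*) and 4.70 (*Lsp1gamma*) on the log2 scale, *Lsp2* fell by 1.33, and *Fbp1* rose by 2.64. These 5 calls of 6 stand beside 32.0% of all genes. *Fbp2* had a log2 change of −0.85 there and was not called. With quantile normalization the change of *Lsp2* was −0.30 and no longer called, and that of *Fbp2* was 0.44. At P1 over WP, *Fbp1* fell by 2.78 and *Fbp2* fell by 1.24 on the log2 scale, with 16.1% of all genes called. The *Fbp2* call was lost with quantile normalization (log2 −0.94).

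In *Ptth* mutants the step from L3E to L3L was a different one. *Lsp1alpha* fell by 1.07 and *Lsp1gamma* fell by 1.45 on the log2 scale, while *Fbp1* rose by 4.85, and 15.8% of all genes were called. *Lsp1beta* (log2 −0.87), *Fbp2* (−0.20) and *Lsp2* (−0.05) were not called. With quantile normalization neither Lsp1 call held, at log2 −0.41 for *Lsp1alpha* and −0.81 for *Lsp1gamma*, and the changes of *Lsp1beta* (0.04), *Fbp2* (0.41) and *Lsp2* (0.66) were above 0. Without mutant replicate 1 of L3L, *Lsp1alpha* was not called either (log2 −0.91). The later steps resembled wild type in their calls. At WP over L3L the Lsp1 genes fell by 4.37 (*Lsp1alpha*), 4.01 (*Lsp1beta*) and 4.81 (*Lsp1gamma*), *Lsp2* fell by 1.31 and *Fbp1* rose by 1.64, with 19.7% of all genes called. With quantile normalization *Lsp2* was not called there (log2 −0.58). At P1 over WP, *Fbp1* fell by 3.32 and *Fbp2* fell by 1.24, with 22.6% of all genes called and the median of all genes at 0.13.

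From P1 to A0 no step of the 6 genes was called by limma in either genotype. The share of all genes called was 13.3% in mutants and 15.5% in wild type at P2 over P1, 12.1% in mutants and 15.3% in wild type at P3 over P2, 19.1% in mutants and 19.6% in wild type at P4 over P3, and 23.8% in mutants and 22.4% in wild type at A0 over P4. The unadjusted p was under 0.05 for 0, 5, 4 and 0 of the 6 genes in mutants over these 4 steps and for 1, 3, 3 and 1 in wild type, and limma-voom called 0 at each. The change nearest to a call was that of *Lsp2* at P4 over P3. It was at 60.1, 65.9 and 90.9 FPKM at P4 in mutants, against 125, 133 and 108 FPKM at P3 (log2 −0.76, adjusted p = 0.00354). In wild type it was at 83.8, 89.5 and 69.8 FPKM at P4, against 145, 166 and 159 FPKM at P3 (log2 −0.95, adjusted p = 1.3e-08), in a step where the median of all genes was −0.16. It was called in wild type under quantile normalization, and without replicate 1 of P3 or replicate 2 of P4.

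Whether the steps differed between genotypes was tested by an interaction term in 1 fit over all 48 libraries. At L3L over L3E the difference, mutant step minus wild-type step, was called for all 6 genes, beside 13.1% of all genes. It was log2 −11.67 for *Fbp2*, −9.30 for *Lsp1alpha*, −9.08 for *Lsp2*, −5.82 for *Fbp1*, −4.35 for *Lsp1gamma* and −4.25 for *Lsp1beta*. This difference uses the same wild-type L3E libraries as the comparison at L3E, with the same gap in age between genotypes, so it is no separate evidence. At WP over L3L only *Fbp1* was called, at log2 −1.002 (SE 0.27, adjusted p = 0.00761), beside 7.82% of all genes, and that value lies at the 2-fold threshold. The call was lost without wild-type replicate 1 or 3 of L3L, wild-type replicate 2 of WP, mutant replicate 3 of L3L, or mutant replicate 1 or 2 of WP. For the Lsp1 genes the same difference was −0.11 for *Lsp1gamma* (95% interval −0.80 to 0.58), 0.14 for *Lsp1beta* (−0.56 to 0.84) and 0.19 for *Lsp1alpha* (−0.89 to 1.26). The later steps gave no call for the 6 genes, beside 2.46%, 3.01%, 2.32%, 1.25% and 1.05% of all genes from P1 over WP to A0 over P4. At each of these the unadjusted p was under 0.05 for 0 of the 6 genes, and limma-voom called 0.

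Relatives of the 6 proteins were followed alongside. The prophenoloxidases share the hemocyanin superfamily with the larval serum proteins, and are enzymes of melanisation made by crystal cells and lamellocytes. *PPO1* was at 22.8, 32.1 and 34.6 FPKM in mutants at L3L, against 191, 195 and 167 FPKM in wild type (log2 −2.61, adjusted p = 0.000642). At WP it was at 0.405, 0.408 and 0.444 FPKM in mutants, against 33.2, 32.6 and 18.6 FPKM in wild type (log2 −4.31, adjusted p = 0.00174). *PPO2* was called higher at L3E (log2 2.01, adjusted p = 0.000654), lower at WP (log2 −3.52, adjusted p = 0.00169), and higher at P2 (log2 1.66) and P3 (log2 1.79). The larval pools of a stage differed in age. At equal age *PPO1* was called lower in mutants (log2 −2.19, adjusted p = 0.000182) and *PPO2* was not called (log2 0.17, adjusted p = 0.384). *PPO3* stayed between 0.331 and 4.00 FPKM and was not called at any stage. The levels of 3 hemocyte markers (*Hml*, *NimC1* and *eater*) were summed. At L3L the sum was 40.6 to 46.9 FPKM in mutants and 36.1 to 42.4 FPKM in wild type, with overlap. Its members differed in direction there. *NimC1* was lower in every mutant library, with means of 9.598 FPKM in mutants and 11.15 FPKM in wild type. *eater* was higher in every mutant library, with means of 13.05 FPKM in mutants and 7.505 FPKM in wild type. *Hml* overlapped. Apart from the prophenoloxidase genes, no marker of crystal cells or lamellocytes alone was followed. At WP the sum was 6.69 to 7.58 FPKM in mutants and 10.4 to 11.2 FPKM in wild type, most of it *NimC1*. *Hml* was at 0.158 to 0.247 FPKM in mutants and 0.112 to 0.147 FPKM in wild type at WP. None of the 3 was called at either stage, and their part in the *PPO1* result was not tested.

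*Adh*, the alcohol dehydrogenase gene to which *Fbp2* is related, was never above 8.90 FPKM in mutants and 0.424 FPKM in wild type. It shares its span with *Adhr*, which was listed at 0 in all 48 libraries. Reads in a span annotated to both need not be assigned to either, so its level is not compared with that of *Fbp2*. *Adh* was called higher in mutants at L3E, L3L, P4 and A0, with log2 changes of 1.83 to 2.76. At equal age *Adh* was called higher in mutants as well (log2 1.81, adjusted p = 0.000821).

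Other genes were ranked by how closely their log2(FPKM + 1) followed each of the 6 over the 24 wild-type libraries, which share stages and pools with each other, so the coefficients are descriptions. Among 9225 candidates with a group mean of at least 10 FPKM, *Obp99b*, an odorant-binding protein gene, came first for *Lsp2* (r = 0.982) and *Fbp2* (r = 0.985) and second for *Fbp1* (r = 0.961). Over the 24 mutant libraries its r was 0.928 with *Lsp2* and 0.971 with *Fbp2*, and only 0.319 with *Fbp1*. *Tsp42Ep*, a tetraspanin gene, came first for *Fbp1* (r = 0.977, and 0.849 over mutant libraries). The closest to *Lsp1beta* was *CG32249* (r = 0.97, and 0.972 over mutant libraries), and to *Lsp1gamma* *CG13890* (r = 0.98, and 0.983). *Lsp1alpha* was followed less closely, first by *CG11313* (r = 0.912, and 0.922). Among the 6 genes themselves, *Fbp1* had r = 0.966 with *Fbp2* in wild type and r = 0.164 in mutants. The wild-type value includes L3E, where the means were 0.0759 FPKM for *Fbp1* and 1.09 FPKM for *Fbp2*. In mutants the L3E means were 155 FPKM for *Fbp1* and 4697 FPKM for *Fbp2*. From L3L to WP the 2 genes parted in wild type too, *Fbp1* from 1779 to 11024 FPKM and *Fbp2* from 5798 to 3231 FPKM.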

How the data were processed

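Whole-body poly(A) RNA-Seq was available for 48 libraries, 8 stages in 2 genotypes with 3 pools of about 15 animals each, grouped by their labels. The authors deposited FPKM values for 17558 genes, and 0 columns of the table could not be assigned to a sample. The sources differ on how they were made: the methods name Fastx, STAR, htseq-count and DESeq2 with a BDGP6.22 annotation, and the submitters' processing notes name HISAT2 2.0.5 and featureCounts 1.5.0-p3 with build BDGP6. Multiplied by gene length and by a constant of its library, 100% of the values were whole reads (tolerance 0.001), which gives the depth. These constants were median-of-ratios size factors (9760 genes), 0.63 to 1.51 times the library totals, so composition was already corrected. With this depth, replicates of a group differed beyond sampling noise (chi-square per gene 4.54 to 77.7), and each library was kept as a replicate.

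The values were tested as log2(FPKM + 1) with limma 3.58.1 in R 4.3.3 (lmFit, eBayes with trend, two-sided). The 12282 genes reaching 3 FPKM in any library entered. Stages and the equal-age larvae were each fitted on their 6 libraries, steps on the 24 libraries of a genotype and interactions on all 48. A fold change on this scale understates the change of low genes. Reads of the 6 genes as a percent of the library and ratios between Lsp1 genes were compared by exact permutation tests, and Poisson intervals (95%) cover counting error only. The fits were tried on simulated reads with changes placed in well-expressed genes of mutants at P1. That trial does not cover genes that are barely expressed in a group. Alternatives were a pseudocount of 0.1, no filter, a filter of 3 FPKM in at least 3 libraries, quantile normalization, limma-voom on the recovered reads, a 1.5-fold threshold, 1 fit over all 48 libraries, a replicate block, and leaving out each library. Named genes were the 6 members, for each the 3 genes most like it in wild type (the closest are given), and from lists of other genes (ecdysone response, fat body genes, transcription factors, autophagy, relatives and markers, 77 of 78 found) those with the largest changes. The members, lists and tests were chosen with earlier results of these data known. Annotation came from BDGP6 release files, in which 98.3% of the 17252 genes found had the same coordinates. Tables and figures used Python 3.11.15, numpy 2.4.6, pandas 2.3.3, scipy 1.17.1 and matplotlib 3.10.9.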

Additional observations from a re-analysis of the deposited data

Results flagged for a closer look

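The step of L3L over L3E differed between genotypes for all 6 genes by the interaction term, mutant step minus wild-type step on the log2 scale, at −9.30 for *Lsp1alpha*, −4.25 for *Lsp1beta*, −4.35 for *Lsp1gamma*, −9.08 for *Lsp2*, −5.82 for *Fbp1* and −11.67 for *Fbp2*. The step of WP over L3L differed for *Fbp1*, at −1.002. With 3 libraries per group, single pools were not tested for standing apart.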

How the results depend on the processing

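The number of the 6 genes called kept within 1.5 times its value in 82 of 95 alternatives other than leaving out a library. With quantile normalization it was 1 at L3L, 0 at P1, 1 at P2 and 0 at P3. The 1.5-fold threshold gave 4 at L3L, 4 at P1, 1 at P2, 2 at P3 and 1 at P4. Without the filter it was 0 at WP, limma-voom gave 1 at A0, and 1 fit over all 48 libraries gave 3 at A0. Leaving out 1 library gave 2 to 3 at L3L, 0 to 1 at each of WP, P2, P3 and A0, 13 to 14 over the wild-type steps, 9 to 10 over the mutant steps and 6 to 7 interactions. The replicate block gave 0 at WP and moved no other count beyond that range. Same-numbered libraries of the genotypes deviated together at r over 0.1 in 6 of 24 pairs (−0.43 to 0.47), and at no stage in all 3, so the numbers do not pair the pools. The difference in the ratio of *Lsp1alpha* to *Lsp1beta* at A0 turned to between 0.00272 and 0.00672 without mutant or wild-type replicate 2. Over all such omissions it ran from −0.0232 to 0.00672. No called change of the 6 genes turned its direction. Of the 94 log2 changes reported, uncalled ones turned in 10 with quantile normalization and in 7 when a library was left out. With quantile normalization they were 0.027 for *Lsp2* at L3L, −0.079 for *Lsp1alpha* and −0.12 for *Lsp1beta* at equal age, 0.44 for *Fbp2* at WP over L3L in wild type and 0.46 in mutants, 0.035 for *Lsp1beta*, 0.66 for *Lsp2* and 0.41 for *Fbp2* at L3L over L3E in mutants, and −0.073 for *Lsp1alpha* and −0.22 for *Lsp1beta* in the interaction at WP over L3L. Leaving out a library gave −0.15 to 0.41 for *Lsp1alpha*, −0.073 to 0.30 for *Lsp1beta* and −0.34 to 0.076 for *Lsp1gamma* in that interaction, −0.18 to 0.15 for *Fbp2* at P2, −0.22 to 0.089 for *Fbp2* at P4, −0.25 to 0.12 for *Lsp2* at A0 and −0.22 to 0.26 for *Lsp2* at L3L over L3E in mutants. Of the 86 changes not given one by one, 23 turned with quantile normalization, 21 when a library was left out and 1 with limma-voom. Quantile normalization moved the median of all genes by 0.12 at WP over L3L in mutants, by −0.16 in mutants and −0.18 in wild type at P2 over P1, by −0.13 at P3 over P2 in wild type, by 0.34 in mutants and 0.37 in wild type at A0 over P4, and by 0.10 in the interaction at P3 over P2. The causes were not tested. Depth limits the wild-type L3E levels of *Lsp2*, *Fbp1* and *Fbp2* most, which rest on 19, 11 and 49 reads.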
